A study of Homo sapiens with 24 samples.

Results

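The genes described here encode laminin-332 and the hemidesmosome, the junction that fastens epithelial cells to the basement membrane. The 9 members were LAMA3, LAMB3, COL7A1, ITGA6, ITGB4, CD151, COL17A1, DST and PLEC. Every H3K27ac region that the authors had annotated to a member, as overlapping or flanking it, was taken from 6 deposited tables. This gave 409 of 171345 regions, and 9 of the 21569 genes named in the tables. H3K27ac, the acetylation of histone H3 at lysine 27, is found at active promoters and enhancers.

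ChIP-seq was done in 10A cells (MCF10A), a non-tumorigenic human mammary epithelial line, and in DCIS cells (MCFDCIS), which were derived from xenografts of oncogene-transfected 10A cells. Cells of each line carried a lentiviral hairpin to ANCO1 (shANCO1) or a control hairpin to GFP (shCTRL) and had been selected with puromycin. ANCO1 is a transcriptional repressor encoded by ANKRD11. With 3 immunoprecipitated and 3 input libraries for each combination of line and hairpin, there were 24 libraries in 8 groups. Per the study's figure legends, the shANCO1 cells of the H3K27ac comparisons carried a single one of several ANCO1 hairpins, so the hairpin and the depletion of ANCO1 cannot be told apart. The tables hold no RNA or protein level, and depletion itself was not checked here.

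A hemidesmosome joins keratin filaments inside the cell to laminin-332 outside it. The laminin is a trimer that holds the chains encoded by LAMA3 and LAMB3, and is bound by integrin α6β4, the product of ITGA6 and ITGB4. The collagen XVII of COL17A1 and the tetraspanin CD151 sit in the membrane with the integrin, while the plakins plectin (PLEC) and BP230 (an isoform of DST) reach the keratins. Collagen VII, encoded by COL7A1, forms the anchoring fibrils beneath the basement membrane. In the breast these junctions are known from the basal, myoepithelial cell layer.

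DNA of 4 members with regions up in DCIS is shown first, with the core letters of an AP-1 site in capitals. AP-1 is a family of transcription factors often bound at epithelial enhancers. The letters searched were TGACTCA on both strands, the reverse strand reading TGAGTCA. The first pair are promoters from RefSeq (GRCh38.p14), given as the 250 bases before an annotated start, along the gene's strand. They are chr18:23872770-23873019 (plus strand, within LAMA3) and chr1:209651375-209651624 (minus strand, within LAMB3). The other three are 200-base stretches read on the plus strand of GRCh38, picked outside exons of the gene for holding the letters. They come from the DCIS region of highest log2 fold change of their gene, and lie at chr1:209655831-209656030 upstream of LAMB3, chr10:104086301-104086500 upstream of COL17A1 and chr2:172447901-172448100 in an intron of ITGA6.
LAMA3 promoter: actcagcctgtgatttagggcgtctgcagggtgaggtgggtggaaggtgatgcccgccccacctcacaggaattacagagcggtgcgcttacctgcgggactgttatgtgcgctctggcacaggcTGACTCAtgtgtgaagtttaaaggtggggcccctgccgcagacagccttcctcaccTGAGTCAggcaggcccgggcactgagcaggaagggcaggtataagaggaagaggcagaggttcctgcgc
LAMB3 promoter: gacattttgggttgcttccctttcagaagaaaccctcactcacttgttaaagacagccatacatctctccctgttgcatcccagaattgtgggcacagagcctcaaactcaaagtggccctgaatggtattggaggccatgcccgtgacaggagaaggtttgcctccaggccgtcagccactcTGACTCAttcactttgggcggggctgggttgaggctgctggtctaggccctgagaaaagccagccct
LAMB3 upstream: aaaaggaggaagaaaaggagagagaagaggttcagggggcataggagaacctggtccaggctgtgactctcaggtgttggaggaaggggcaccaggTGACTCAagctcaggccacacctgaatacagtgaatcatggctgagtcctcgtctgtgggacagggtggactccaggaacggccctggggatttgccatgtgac
COL17A1 upstream: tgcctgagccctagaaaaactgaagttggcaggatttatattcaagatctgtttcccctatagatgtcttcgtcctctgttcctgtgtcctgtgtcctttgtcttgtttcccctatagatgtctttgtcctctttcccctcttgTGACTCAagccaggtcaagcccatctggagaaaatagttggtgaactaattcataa
ITGA6 intron: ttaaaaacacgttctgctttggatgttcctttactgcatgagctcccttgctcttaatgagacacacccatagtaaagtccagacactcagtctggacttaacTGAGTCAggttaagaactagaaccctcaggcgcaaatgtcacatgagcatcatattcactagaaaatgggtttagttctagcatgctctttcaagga

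In the printed LAMA3 promoter the letters began 125 and 69 bases before the start, and in the printed LAMB3 promoter 67 bases before it. That LAMB3 promoter belongs to a start inside the gene. The LAMB3 promoters further upstream, chr1:209652426-209652675 and chr1:209652330-209652579, had 0 matches each. The RefSeq table held 11 promoters of 6 members, and the 2 printed were the only ones with a match (18.2%), against 4.2% of all 35116 promoters of that length. None is printed for ITGB4, CD151, PLEC or the first start of LAMA3. The TEAD letters CATTCC, on both strands, were in 1 of the 11 promoters (9.09%), at DST, and in 11.9% of all. Within the middle 500 bases of regions, the AP-1 letters were in 14 of the 61 member regions up in 10A (23.0%) and in 20.3% of all 10A regions up. In DCIS they were in 6 of 28 (21.4%) and 25.5%. The TEAD letters were in 23.0% of the 10A member regions up and in 27.3% of all such regions, and in 28.6% and 30.1% for DCIS. For the TEAD letters, the order of members and all regions up depended on the bases searched. In whole regions they were in 60.7% of member regions up and 60.5% of all regions up in 10A. In DCIS these shares were 53.6% and 49.3%. For the AP-1 letters the order within each line stayed the same, while the gap varied in size. In the middle 200 bases the TEAD letters were in 6.56% of member regions up in 10A and 12.4% of all regions up, and in whole regions the AP-1 letters were in 55.7% and 40.9%. A match describes letters in a window, not binding.

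The values per region were those of the authors' csaw test of whole groups. Each region carried the deposited log2 fold change of a single representative window, and no value per library, replicate spread or depth could be read from the tables. The word up is used for a region with FDR under 0.05 and direction up in the authors' deposited table. The median log2 fold change of all regions tested was 0.76 in 10A and 0.52 in DCIS, so a member's value is read against it and not against 0 alone. Of 11 markers fixed for mammary epithelium, between 8 and 10 had a region enriched over input in each of the 4 groups. KRT14 had none in any group and KRT17 none in 10A. None of 3 blood markers had a region, PECAM1 was the only one of 3 endothelial markers with one, and 0 to 2 of 4 fibroblast markers did. Those of 4 luminal hormone receptor markers with a region numbered 2 or 3, and included ESR1 and GATA3 in all groups.

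H3K27ac was higher with shANCO1 at parts of every member in 10A. Of the 109 member regions, 61 were up (56.0%), where 43.6% of all 50284 regions were up, and 0 were down, where 0.225% of all were. Required to lie also 1 log2 unit above the median of the line, 1 of the 61 remained. The same count was not made over all regions, so it does not set the members apart. All 9 members had at least 1 region up, as did 74.3% of all genes named in the 10A table. In DCIS, 28 of 107 member regions were up (26.2%), against 23.6% of all 44790 regions, and 0 were down, against 4.86%. In that line 8 of 9 members had a region up, against 32.2% of all genes named. Large genes hold more regions and so pass this last criterion more readily. The median log2 fold change of member regions was 0.89 in 10A and 0.60 in DCIS, which is 0.13 and 0.08 above the medians of the lines. As a group, the members therefore lay near the shift of all regions, and the values of single genes differed widely around it.

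**Figure D1:**
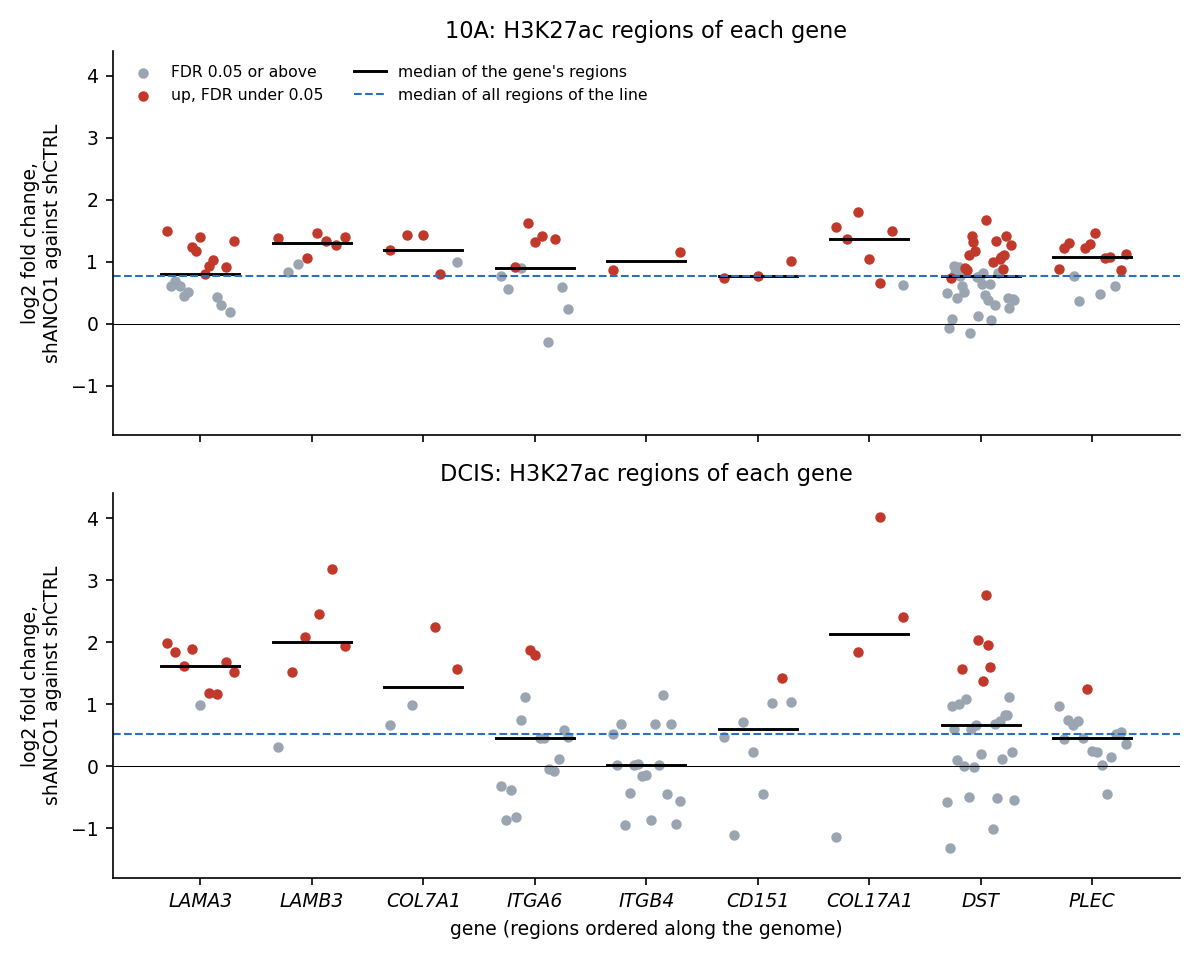
Log2 fold change of H3K27ac, shANCO1 against shCTRL, for every region of each member in 10A (upper panel) and DCIS (lower panel). Each point is 1 region, red where up at an FDR under 0.05, with the gene's median as a black bar and the median of all regions of the line dashed. In DCIS the medians of LAMA3, LAMB3 and COL17A1 (1.61, 2.01 and 2.13) stand above those of ITGA6, ITGB4 and PLEC (0.45, 0.01 and 0.45), while in 10A the 9 medians run from 0.76 to 1.36.

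Most regions of LAMB3 in both lines, and of LAMA3 in DCIS, were up. At LAMA3, the α3 chain gene, 9 of 17 regions were up in 10A, with values over all 17 from 0.19 to 1.49, and 8 of 9 were up in DCIS, from 0.98 to 1.98. The gene has 2 groups of start sites 184 kb apart, and the internal one is the start of the short α3A chain known from laminin-332. All 8 DCIS gains lay between 138 and 195 kb from the first start, that is on both sides of the internal one. They covered 8.1 kb, whereas LAMA3 regions enriched over input in DCIS shANCO1 covered 1.3 kb. The region over the internal start, chr18:23870801-23873800, had a log2 fold change of 1.17 (FDR 0.016) in DCIS. The corresponding 10A region, chr18:23870401-23873200, had 0.92 (FDR 0.00839), but its neighbour just inside the short transcript had 0.19 and an FDR of 0.853.

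At the first start of LAMA3 the lines differed in what was tested. In 10A, chr18:23689601-23690400 was up by 1.49 (FDR 0.00156), the highest value and lowest FDR of the gene in that line. It covers part of the first exon, with untranslated and coding bases, and only 2 of its 7 windows were up. The 5 following 10A regions, 5.75 to 36.5 kb into the gene, did not pass, with values of 0.44 to 0.68. DCIS had no region within 1 kb of this start, so no change can be given for it.

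LAMB3, which encodes the β3 chain, was up over a continuous stretch in both lines. In 10A, 6 of 8 regions were up, and 4 adjoining ones of about 4 kb covered chr1:209645901-209661700 with values of 1.26 to 1.46. In DCIS, 5 of 6 were up. The region upstream of the start, chr1:209655001-209659300, rose by 3.18 on the log2 scale (FDR 1.8e-13), with 41 of its 42 windows up. The region over the starts, chr1:209650701-209655100, rose by 2.45 (FDR 9.85e-08, 39 of 42 windows). That over the following first exons and introns rose by 2.09 (FDR 5.68e-07). Of all windows tested at LAMB3, 94.1% were up in DCIS and 87.3% in 10A, where 17.5% and 36.6% of all windows of the tables were up. The non-coding gene HSD11B1-AS1 was also named at 3 regions in each line, and H3K27ac does not tell which of them a region serves.

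COL7A1 had 5 regions in 10A, of which 4 were up with a median of 1.19, and 4 in DCIS, of which 2 were up with a median of 1.28. Its largest value was in DCIS at chr3:48563501-48564900, over the last exons of the gene, with 2.24 (FDR 5.8e-06). The 10A region at the same place had 1.44 (FDR 1.28e-05). At the start, 10A had 0.81 (FDR 0.00591) and DCIS had 1.57 (FDR 0.0245) in a region that began 472 bases upstream. Neither DCIS group had a region enriched over input at the places of these DCIS gains. Every COL7A1 region also named a neighbour, UCN2 and PFKFB4 at the end of the gene or UQCRC1 at its start, and they cannot be told apart here.

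COL17A1, the transmembrane collagen of the hemidesmosome also called BP180, had the highest value of any member. Its DCIS region chr10:104084201-104086500, over the first exon and start site, rose by 4.02 (FDR 3.02e-08), with all 22 windows up. A region 3.38 kb into the gene rose by 1.85 (FDR 0.000662), and a narrow one of 200 bp upstream, at -8.52 kb from the start, rose by 2.41 (FDR 5.09e-05). The fourth DCIS region, 8.48 kb into the gene, had -1.14 with an FDR of 0.123. In 10A the start region chr10:104084101-104087000 was up by only 0.66 (FDR 0.0145, 6 of 28 windows), which is below the median of all 10A regions. The largest 10A gain lay instead over exons near the end of the gene, at chr10:104053801-104055400, with 1.79 (FDR 7.38e-06). That end held 3 regions in 10A, all up with 1.36 to 1.79, and none was tested there in DCIS. The difference between the lines was not tested at any region, since the tables hold no values that would allow it.

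**Figure D2:**
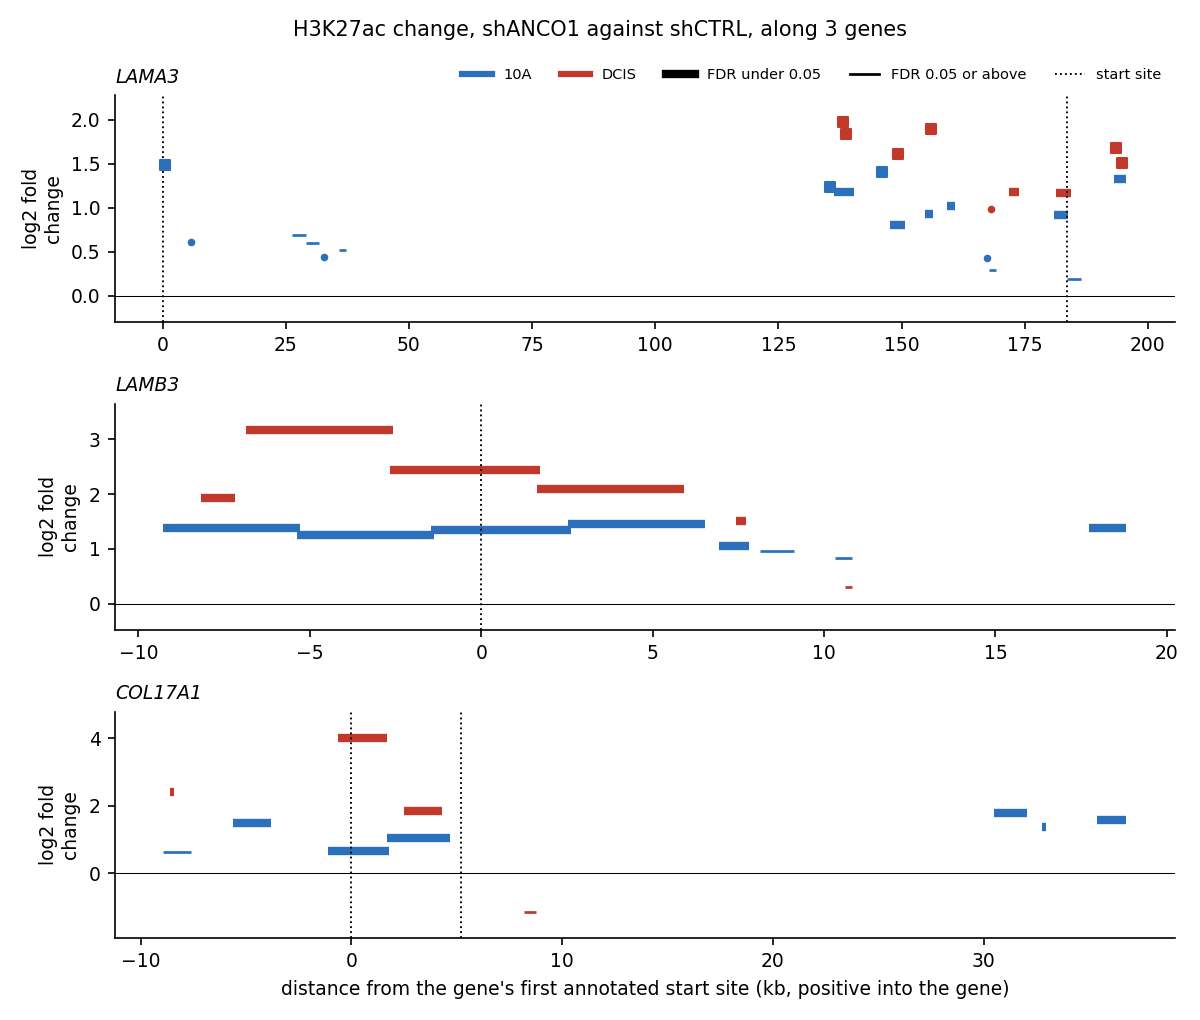
Log2 fold change of H3K27ac regions along LAMA3, LAMB3 and COL17A1, against distance in kb from the first annotated start site, positive into the gene. Blue bars are 10A and red bars DCIS regions, thick where FDR was under 0.05 and thin otherwise (short LAMA3 regions also carry a square or a dot), and dotted lines mark start sites. DCIS regions near the starts of LAMB3 and COL17A1 reach 3.18 and 4.02, and those of LAMA3 gather around its internal start at 184 kb.

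A smaller share of the integrin regions than of the laminin and COL17A1 regions passed in DCIS, although the difference between genes was not tested. ITGA6, for the α6 chain, had 5 of 11 regions up in 10A, and all 5 lay in introns between 10.6 and 33.5 kb from the start. The largest, chr2:172445701-172448300, rose by 1.61 (FDR 0.000414). The start region itself had 0.78 with an FDR of 0.187. In DCIS, 2 of 15 regions were up, and both overlapped intron regions that were up in 10A. They were chr2:172446801-172449300 with 1.87 (FDR 0.00619) and chr2:172449601-172449800 with 1.79 (FDR 0.00224). Over the start the DCIS value was -0.31 (FDR 0.936), and the next 3 regions into the gene had -0.87 to -0.38, with FDRs of 0.545 to 0.655.

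ITGB4, for the β4 chain, was up at both of its 10A regions and at none of its 17 DCIS regions. The 10A region over the start, chr17:75720501-75724800, rose by 0.86 (FDR 0.00471). The other, chr17:75764201-75765200, lies past the end of the gene and also named GALK1, with 1.16 (FDR 0.000281). The DCIS values ran from -0.95 to 1.14 around a median of 0.01, and the lowest of the 17 FDRs was 0.173. Of the 133 windows tested at ITGB4 in DCIS, 0 were up and 0 down. Without intervals the tables cannot show that these regions were unchanged.

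CD151, the tetraspanin that associates with laminin-binding integrins, had 3 of 3 regions up in 10A, with 0.73 to 1.00. The region over its start was near the threshold, with 0.73 and an FDR of 0.0482. In DCIS 1 of 8 regions was up, a 300 bp region 13 kb downstream of the start, with 1.42 (FDR 0.0305). The 2 DCIS regions at its starts had -1.11 (FDR 0.0958) and 0.71 (FDR 0.52). All CD151 regions in both lines also named neighbours such as POLR2L and TSPAN4, so none belongs to CD151 alone.

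DST is the largest member locus by regions, with 42 in 10A and 29 in DCIS. In 10A, 16 were up, with values over all 42 from -0.16 to 1.67 and a median of 0.77. In DCIS, 6 were up, all in introns, with values over all 29 from -1.32 to 2.75. The largest DCIS gain was chr6:56746101-56747500, which rose by 2.75 (FDR 2.4e-05, 11 of 12 windows). Next to it chr6:56749001-56750900 rose by 1.95 (FDR 9.98e-06) and chr6:56751401-56752000 by 1.61 (FDR 0.0171). The 10A regions over the same 3 places had 0.63 (FDR 0.457) and 0.82 (FDR 0.0578) and did not pass. Conversely, 4 of the 5 groups of DST start sites had a region up in 10A and 0 of 5 in DCIS. The start 312 kb into the gene had 0.73 (FDR 0.0105) in 10A and -1.32 (FDR 0.204) in DCIS.

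PLEC, for the linker plectin, had 10 of 14 regions up in 10A and 1 of 15 in DCIS. The medians over all its regions were 1.07 and 0.45. The largest 10A value was at chr8:143948701-143951800, with 1.47 (FDR 0.00237) and 27 of 29 windows up. The DCIS region that was up, chr8:143955801-143958400, rose by 1.25 (FDR 0.0197), and the 10A region it overlapped rose by 1.06 (FDR 0.0063). Of the windows at PLEC, 73.4% were up in 10A and 1.33% in DCIS. Only 1 PLEC region in 10A and 2 in DCIS named no other gene, and 1 of these was up in each line. The rest also named MIR661, PARP10 or GRINA, and H3K27ac does not tell which gene such a region serves. Plectin is expressed in many tissues and has many alternative first exons, whose GENCODE starts formed 10 sites when those under 1000 bases apart were joined.

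**Figure D3:**
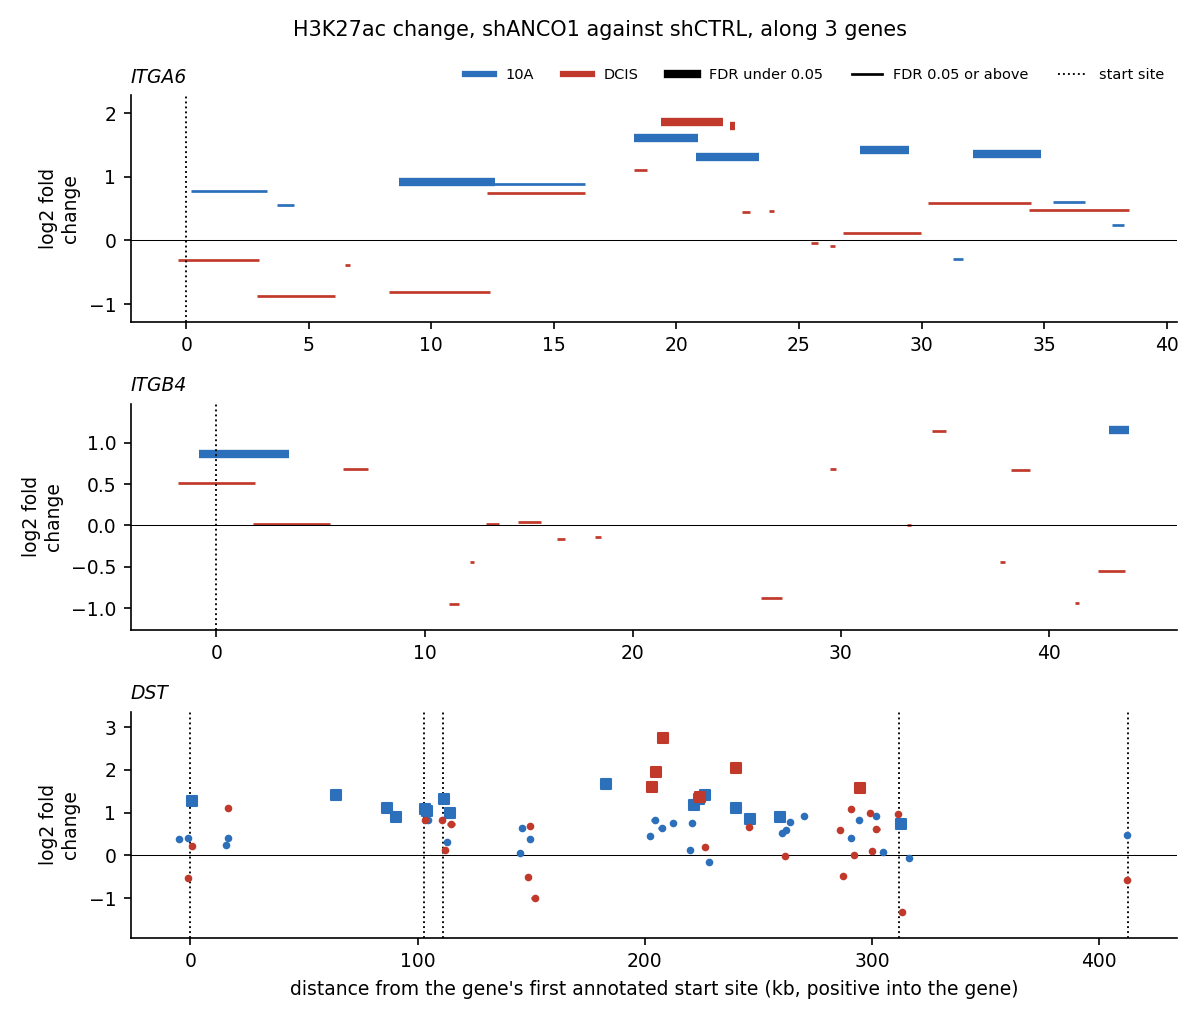
Log2 fold change of H3K27ac regions along ITGA6, ITGB4 and DST, against distance in kb from the first annotated start site, positive into the gene. Blue is 10A and red DCIS, thick where FDR was under 0.05 and thin otherwise (DST regions also carry a square or a dot), and dotted lines mark start sites. DCIS regions that were up lie inside introns of ITGA6 and DST (up to 1.87 and 2.75), and none of the 17 DCIS regions of ITGB4 was up.

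Start sites were then compared across members. Starts of protein-coding transcripts in GENCODE release 44, joined in this way, formed 25 sites for the 9 genes, and 24 had a region within 1 kb in each line. Of the 24 with a region in 10A, 22 had one up, and the 2 without a gain were those of ITGA6 and the last of DST. Over all protein-coding genes, 64% of start sites with a region had one up. Of the 24 with a region in DCIS, 6 had one up, where 8.69% of all start sites with a region did. These were the internal start of LAMA3, the start of LAMB3, the start of COL7A1, both starts of COL17A1 and 1 of 10 starts of PLEC. Neighbouring starts of PLEC and CD151 share regions, so these counts are not independent. By part of the gene, 19 of 26 regions at start sites (73.1%) and 22 of 58 intronic ones (37.9%) were up in 10A, against 59.8% and 34.9% of all regions of each kind. In DCIS the shares were 25.9% (7 of 27) and 27.1% (13 of 48), against 7.99% and 28.9%. Member regions were classed by the starts and exons of the member itself, but all regions by those of any protein-coding gene. The shares by part are therefore not fully alike, and none of these differences was tested.

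The 2 lines share no libraries, so their up regions can be laid over each other. Of 61 member regions up in 10A, 44 overlapped a region tested in DCIS and 21 overlapped one that was up there, which is 34.4% of the 61. Over all regions up in 10A that share was 22.8%. Of 28 up in DCIS, 27 overlapped a region tested in 10A and 22 overlapped one that was up (78.6%), against 49.5% of all regions up in DCIS. For LAMB3 and LAMA3 this was 5 of 5 and 7 of 8 of the DCIS gains, and for DST 2 of 6.

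The tables against input list where each group carried the mark. Rounded, 100% of the regions in each of the 4 tables were enriched over input at an FDR under 0.05, the exceptions being 2 of the 15482 regions of DCIS shCTRL. The number and length of listed regions is therefore what can be read. The members had 45 regions in 10A shCTRL and 77 in 10A shANCO1, covering 24.2 and 78.3 kb. That is a ratio of 3.24, where the ratio over all regions was 2.79 (9.03 and 25.2 Mb). The mean log2 fold change over input of member regions was 3.84 and 3.79, and that of all regions 3.70 and 3.65. In DCIS the members had 30 regions in shCTRL and 41 in shANCO1, covering 29.9 and 42.3 kb, a ratio of 1.41 against 1.08 over all regions (11 and 11.9 Mb). The mean over member regions was 4.70 and 5.00, and over all regions 4.52 and 4.73. These lists were made group by group, and the differences between them were not tested.

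By gene, the listed length at LAMB3 was 4.8 kb in 10A shCTRL and 14 kb in 10A shANCO1, and 1.5 and 8.4 kb in the DCIS groups. COL17A1 had 2.3 and 5.2 kb in 10A, no region in DCIS shCTRL and 0.5 kb in DCIS shANCO1, with 6.87 over input at its start. LAMA3 had 3.9 and 10.5 kb in 10A but only 0.5 and 1.3 kb in DCIS, all near its internal start. COL7A1 was listed with 2.8 kb in 10A shANCO1, not at all in 10A shCTRL or DCIS shANCO1, and with 0.3 kb outside the gene in DCIS shCTRL.

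ITGA6 was the reverse case between lines. It had 0.8 kb in 10A shCTRL and 10.9 kb in 10A shANCO1, but 11.5 and 10.5 kb in the DCIS groups, and its start was listed in both DCIS groups with log2 values over input of 5.81 in shCTRL and 7.28 in shANCO1. ITGB4 had 1.4 and 3.3 kb in 10A and 3.7 and 4.3 kb in DCIS, with its start listed in all 4 groups. DST had 8.7 and 19.9 kb in 10A and 5.4 and 5.3 kb in DCIS, and its start 312 kb into the gene was listed in all 4. The 10A region over it had 5.47 over input in shCTRL and 3.25 in shANCO1, and the next one 3.30 and 4.14. Adjoining regions near it in DCIS had 6.81 in shCTRL and 7.31 in shANCO1. The direct comparison at this start gave 0.73 (FDR 0.0105) in 10A and -1.32 (FDR 0.204) in DCIS. At the ITGA6 start in DCIS it gave -0.31 (FDR 0.936). The order of values over input can thus differ from the direct comparison, and does not measure a change. PLEC had 1.5 and 7.8 kb in 10A and 6 and 10.4 kb in DCIS, and CD151 0.8 and 3.9 kb and 1 and 1.6 kb. Of the 25 start sites, 7 were within 1 kb of a listed region in 10A shCTRL and 16 in 10A shANCO1, and 8 and 13 in DCIS. All listed regions numbered 15490 and 28607 in 10A, and 15482 and 16692 in DCIS. The same count was not made over all start sites, so it does not set the members apart. A region that is not listed lay under the authors' minimum, which does not show that the mark was absent.

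**Figure D4:**
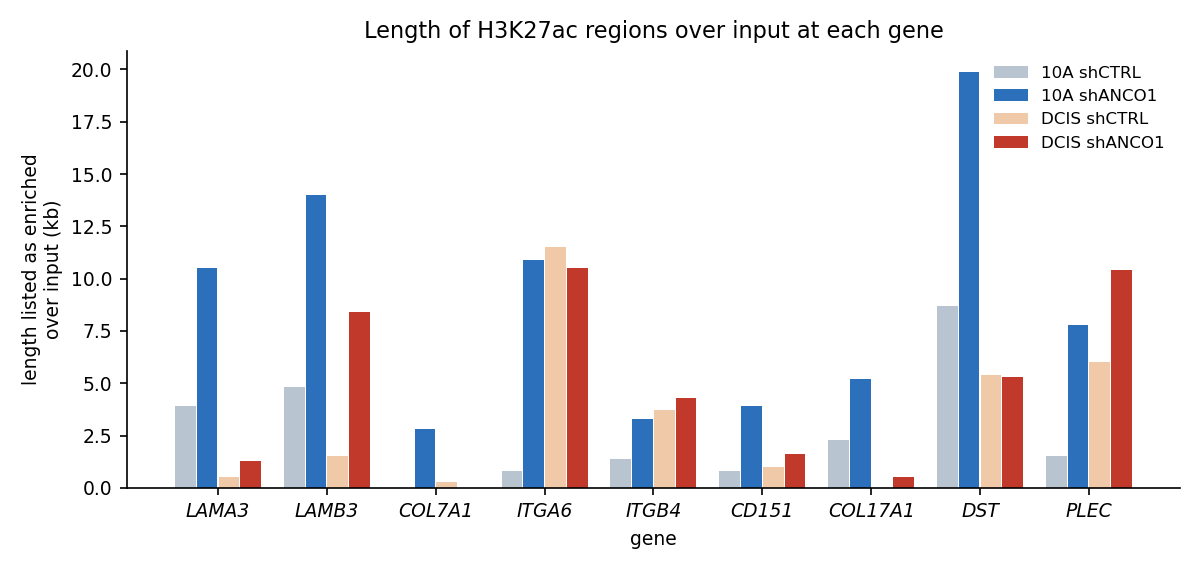
Length in kb of H3K27ac regions listed as enriched over input at each member, with 1 bar for each of the 4 groups and no error bars, since the tables hold no value per library. The shANCO1 bar is above the shCTRL bar for all 9 members in 10A, while in DCIS ITGA6 (11.5 and 10.5 kb) and DST (5.4 and 5.3 kb) differ little and COL7A1 is listed only in shCTRL.

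The wider list of basement membrane and matrix adhesion genes, 36 genes without the members, was read in the same tables. In 10A, 120 of its 242 regions were up (49.6%, against 43.6% of all regions) and 0 down (against 0.225%). Of the 34 genes with a region, 30 were up at least once, against 74.3% of all genes named. The median log2 fold change was 0.81, against 0.76 for all regions. In DCIS, 66 of 181 were up (36.5%, against 23.6%) and 9 were down (4.97%, against 4.86%). There 23 of 33 genes were up and 7 down at least once, where 32.2% of all genes named were up. The share of all genes named that were down at least once was not counted. In both lines, genes with more regions pass such criteria more readily. The median log2 fold change in DCIS was 0.97, against 0.52 for all regions.

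By the naming rule, the highest 10A values among called regions of that list were at PARVA (1.59, FDR 0.000976) and VCL (1.58, FDR 5.92e-05), a parvin and vinculin of focal adhesions. The lowest were at LAMB2 (0.59, FDR 0.0359) and ITGB6 (0.63, FDR 0.011). In DCIS the highest were at ITGB1 (5.35, FDR 2.56e-10), the integrin β1 chain, and LAMB1 (2.86, FDR 3.88e-06), the laminin β1 chain. The lowest were at PARVA (-3.10, FDR 2.28e-05) and DAG1 (-1.84, FDR 0.00857), the gene of dystroglycan.

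Genes with a profile like the members were sought over the 6 tables, as the mean absolute difference in median log2 values from the members' median profile. Among 8181 genes with a region in every table, 7 of them members, near others were ENC1 (0.08), TFAP2A (0.11), AP3D1 (0.12) and OXA1L (0.12). The 7 members, which set that profile, differed from it by 0.37 to 0.71, and the median over the other 8174 genes was 0.57.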

How the data were processed

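H3K27ac ChIP-seq of 24 libraries (8 groups of 3) had been processed by the authors. Per the study's methods and the submitters' processing notes, reads were aligned to GRCh38 with BWA and Rsubread, deduplicated with SAMtools and tested with csaw. HOMER and FastQC are also named. The normalization, window filter, merging of windows and prior count were not given in the sources used here. The 6 deposited tables hold, per region, a combined p-value and FDR, the log2 fold change of a representative window and numbers of windows, with no counts and no value per library. Depth and replicate spread are therefore unknown, and normalization sets the zero of every log2 value.

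Regions naming a member in the overlap, left or right annotation were read with Python 3.11.15 and pandas 2.3.3. A region was up or down at a deposited FDR under 0.05 in the authors' direction. Mixed directions were not called. No new test was run. Separate cultures are not stated, so FDRs cover the spread between these libraries. Members, lists and rules were chosen with earlier results of these data known. Named genes were all 9 members, the 2 highest and 2 lowest genes of the adhesion list among called regions of each line, and the 5 nearest profiles, of which 1 is not reported here. Gene parts and starts came from GENCODE release 44, starts under 1000 bases apart forming 1 site. The reading and counting rules were tested on simulated rows. Alternatives were other thresholds, centring, numbers of windows, annotation rules, start-site regions and motif windows.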

Additional observations from a re-analysis of the deposited data

How the results depend on the processing

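Member regions up were also counted after centring on the median of the line, at least 1 log2 unit from it. The 10A count fell from 61 to 1, while that in DCIS went from 28 to 21. The same count over all regions was not made. The centred median log2 fold changes were 0.13 in 10A and 0.082 in DCIS. At an FDR under 0.01, 18 member regions were up in DCIS, and at an FDR under 0.1, 1 region was down there (CD151, -1.11). An FDR under 1e-10 left 17 of 45 enriched regions in 10A shCTRL. Added after seeing the data was a count of regions that name no gene but members, which lowers counts by its construction. It left 29 up of 65 in 10A, where 43.6% of all regions, not restricted in this way, were up. The 10A share was then close to that of all regions. In DCIS it left 22 up of 62, where 23.6% of all regions were up. With it, 7 members were up in 10A and 6 in DCIS, without COL7A1 and CD151. The 10A median was 1.01 as the median over members and 1.00 without DST, which holds 42 of 109 regions. The causes of the other shifts were not tested. The other 59 values of counts and medians stayed within 1.5 times or 0.1 log2. Represented by the region nearest a start, DCIS values turned from 1.95 to -1.32 for DST, from 1.79 to -0.31 for ITGA6 and from -0.93 to 0.52 for ITGB4, and those of CD151 and PLEC in DCIS and ITGA6 in 10A no longer passed. Regions equally near a start were ranked by FDR, and the lowest was taken. At DST the DCIS regions over a start ran from -1.32 to 0.82, so its turn depended on that rule. Shares with motif letters rose with the length searched, in DCIS from 10.7% in 200 bases to 39.3% in whole regions for AP-1. No paired analysis was possible because the tables hold no value per library, and for the same reason no replicate could be left out. Depth is unknown, so no limit from it can be given.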
